A study of Homo sapiens with 6 samples.

Results

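The genes described here encode the proteins of the mitochondrial ribosome that carry an MRP symbol. They were taken from the deposited gene table by name, as every gene whose symbol starts with MRPL or MRPS followed by a digit. This gave 78 of 24154 genes, 49 with an MRPL symbol (large subunit) and 29 with an MRPS symbol (small subunit). All 78 were annotated as protein coding in GENCODE 29 and all 78 passed the filter on low counts. RNA was measured by poly(A) RNA-seq in HCT116, an established human colorectal carcinoma line. One group was treated with an siRNA against CPT2 (CPT2 knockdown, n = 3 libraries) and the other with a negative control siRNA (NC, n = 3), both for 48 h. CPT2 encodes carnitine palmitoyltransferase 2, an inner mitochondrial membrane enzyme of long-chain fatty acid oxidation. Separate cultures are not mentioned in the labels, and the p-values therefore cover the spread among these libraries alone, part or all of which may be technical.

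Mitochondria keep a ribosome of their own, which translates the few messenger RNAs encoded by mitochondrial DNA, all of them for subunits of the respiratory chain and ATP synthase. Its ribosomal RNAs are made inside the organelle, but its proteins are encoded in the nucleus, translated in the cytosol and imported. Part of these proteins have counterparts in bacterial ribosomes, and the rest were added in mitochondria. Promoters of nuclear genes for mitochondrial proteins are known to be bound by the nuclear respiratory factors NRF1 and NRF2, the second also called GABP, a member of the ETS family, and by YY1.

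Promoter sequences are shown because, of the 5 motifs searched, those of ETS factors and YY1 occurred more often in the members' promoters than in other promoters. RefSeq promoters on GRCh38.p14, running from 250 bases before to 50 bases after each gene's start, were at hand for 69 of the 78 genes (42 MRPL and 27 MRPS) and for 15843 protein-coding genes in all. The ETS letters CCGGAAG, read on both strands, occurred in 40.5% of MRPL and 44.4% of MRPS promoters, against 14.2% of all promoters. The YY1 letters AAGATGGC occurred in 28.6% of MRPL and 29.6% of MRPS promoters, against 3.91% of all. At least one of the pair was present in 57.1% of MRPL and 63.0% of MRPS promoters, against 17.2% of all, and 5 MRPL and 3 MRPS promoters held both. The palindromic NRF1 consensus, searched without mismatches, was found in 1 MRPL promoter, 0 of 27 MRPS promoters and 1.75% of all promoters. The E-box CACGTG was found in 11.9% of MRPL, 3.70% of MRPS and 8.88% of all promoters, and the TATA letters TATAAA in 2.38%, 3.70% and 9.63% of the same sets. The median GC content of the promoters was 61.3% for MRPL, 60.0% for MRPS and 62.7% for all. A match says only that the letters are there.

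Windows of 125 bases, from 100 bases before the RefSeq start through the first 25 transcribed bases, are given for 4 members that hold both motifs, written 5′ to 3′ on the strand of the gene. Capitals mark the ETS letters CCGGAAG, their reverse complement CTTCCGG, and the YY1 letters AAGATGGC; no ETS and YY1 match overlaps another. MRPL20 lies on the minus strand at chr1:1407269-1407393, MRPL52 on the plus strand at chr14:22829787-22829911, MRPS10 on the minus strand at chr6:42217837-42217961 and MRPS18A on the minus strand at chr6:43687767-43687891.
MRPL20: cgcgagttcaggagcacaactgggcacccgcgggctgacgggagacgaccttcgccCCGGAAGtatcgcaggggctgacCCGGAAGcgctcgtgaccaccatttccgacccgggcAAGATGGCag
MRPL52: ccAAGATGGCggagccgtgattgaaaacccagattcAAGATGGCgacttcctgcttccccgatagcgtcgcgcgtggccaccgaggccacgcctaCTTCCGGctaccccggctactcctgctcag
MRPS10: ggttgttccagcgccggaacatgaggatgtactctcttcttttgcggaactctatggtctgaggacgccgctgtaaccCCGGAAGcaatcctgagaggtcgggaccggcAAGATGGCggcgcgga
MRPS18A: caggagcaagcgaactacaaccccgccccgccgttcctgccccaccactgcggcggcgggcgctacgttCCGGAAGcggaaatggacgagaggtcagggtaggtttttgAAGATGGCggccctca
MRPL20 has 2 ETS matches ahead of 1 YY1 match, MRPL52 has 2 YY1 matches ahead of 1 reversed ETS match, and MRPS10 and MRPS18A have 1 of each. The motifs did not go with one size of difference between the groups: MRPL genes had medians of 0.32 (log2 fold change) with the ETS letters and 0.27 without, and MRPS genes 0.11 with them and 0.28 without. For the YY1 letters the medians were 0.25 with and 0.33 without in MRPL, and 0.25 with and 0.25 without in MRPS. Of the sequences printed, MRPS18A belonged to the genes with the most positive differences described below and MRPS10 had the most negative one of its subunit.

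The libraries held 28353790 to 29449380 counts. The targeted gene, CPT2, had 492, 597 and 553 counts in the knockdown libraries, against 709, 881 and 911 in NC libraries. The fitted log2 difference was -0.44 (SE 0.17; adjusted p = 0.338 by edgeR, 0.0937 to 0.983 over the alternatives), and the groups did not overlap, with an exact 2-sided permutation p of 0.1, the smallest that 3 against 3 libraries allow. With offsets for transcript GC content and length its log2 fold change was 0.026. CPT2 knockdown replicate 1 stood apart on the first principal component (score 76.6, against -44.6 to 16.03 in the other 5 libraries), so results are also given without it. Of 8 epithelial markers expected in this line, 5 reached 1 FPKM in at least 1 library, and CDH1, KRT19 and VIL1 stayed below 1 FPKM in all 6. EPCAM reached no more than 2.36 FPKM. The low levels of CDH1, KRT19, VIL1 and EPCAM go against what was expected of a colorectal epithelial line. The identity of the cells was not tested. The summed level of the 8 was 1067 to 1437 FPKM in knockdown and 1023 to 1150.5 FPKM in NC libraries. KRT8 and KRT18 made up most of it. Of 14 markers of blood, fibroblast, endothelial, liver and muscle cells, 11 stayed below 1 FPKM in all libraries, ALB and APOA2 were at 0, and the summed level was 44.3 to 50.8 FPKM in knockdown and 47.7 to 51.9 FPKM in NC libraries. Most of that sum came from COL1A1, at 12.4 to 17.1 FPKM in knockdown and 10.9 to 13.4 in NC libraries, CD68, at 12.7 to 15.6 in knockdown and 10.5 to 11.7 in NC libraries, and CDH5, at 12.3 to 20.3 in knockdown and 22.03 to 27.7 in NC libraries. CD68 was thus higher and CDH5 lower in every knockdown library, and the part of these genes in the results was not tested. All of the 14 markers had been expected at or near 0.

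Transcripts of both subunits were, in the main, slightly more abundant in the knockdown libraries than in NC libraries, but no single gene passed the test over all genes. A positive log2 fold change was found for 40 of 49 MRPL and 24 of 29 MRPS genes, where 50.7% of all 15302 tested genes had one. The median log2 fold change was 0.27 for MRPL (range -0.21 to 0.77) and 0.20 for MRPS (range -0.18 to 0.88), beside 0.0083 for all tested genes. By edgeR's quasi-likelihood test with Benjamini-Hochberg adjustment, 0 of 49 MRPL and 0 of 29 MRPS genes were called at 0.05, with 0.0131% of all tested genes called, and the smallest adjusted p of a member was 0.338. At an unadjusted p under 0.05, 10 MRPL and 5 MRPS genes were higher and 0 were lower in the knockdown, where 9.18% of all tested genes were higher and 5.29% lower. DESeq2 also called 0 members (0.064% of all genes it tested), with 12 MRPL and 6 MRPS genes at an unadjusted p under 0.05, where 17.8% of all 15302 genes stood there. Limma-voom gave 9 and 5, where 15.1% of all genes did, a share close to that of the members. The libraries are bulk RNA, so a change in RNA per cell cannot be told apart from a change in the share of cells of one kind.

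**Figure D1:**
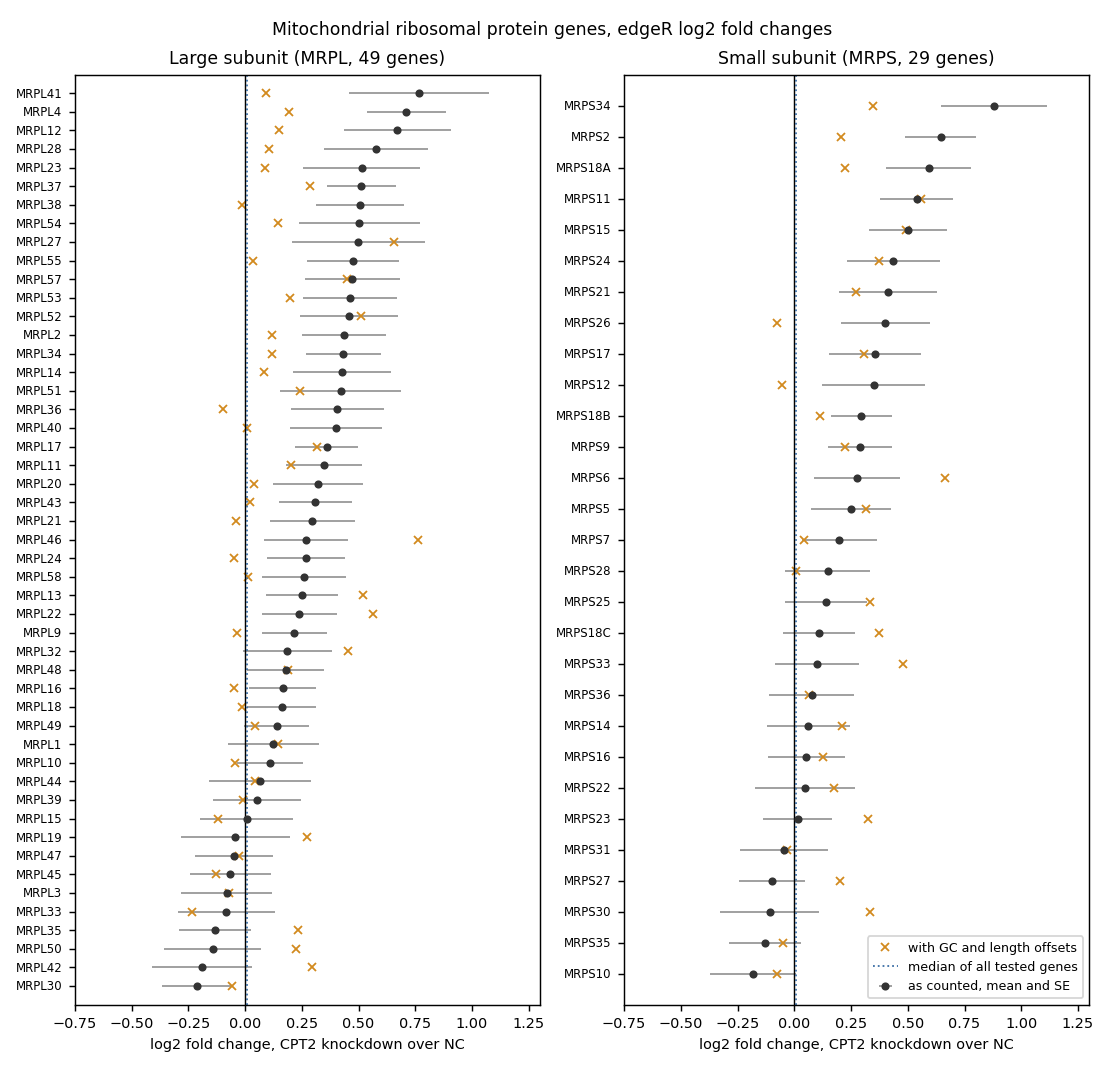
Log2 fold change (horizontal axis, CPT2 knockdown over NC) of each MRPL gene (left) and each MRPS gene (right), sorted by value. Dots with lines are edgeR estimates with their SE, crosses are estimates with GC and length offsets, and the dotted line is the median of all tested genes at 0.0083; most dots lie right of it, with MRPL medians of 0.27 and 0.094 and MRPS medians of 0.20 and 0.22 for dots and crosses.

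The CPM of the groups did not overlap for 14 MRPL genes, 13 of them higher in the knockdown and 1 lower, and for 9 MRPS genes, all 9 higher. That is 26.5% of MRPL and 31.0% of MRPS genes with every knockdown library above every NC library, where 12.2% of all tested genes were so separated in each direction. The 13 MRPL genes were MRPL2, MRPL4, MRPL9, MRPL13, MRPL17, MRPL18, MRPL22, MRPL34, MRPL37, MRPL38, MRPL40, MRPL43 and MRPL57. The 9 MRPS genes were MRPS2, MRPS9, MRPS11, MRPS15, MRPS18A, MRPS18B, MRPS18C, MRPS26 and MRPS34. With offsets for GC content and length (described below) MRPL9, MRPL18, MRPL38 and MRPS26 of these had a negative log2 fold change. In the authors' deposited table, 2 of 49 MRPL genes (MRPL4 and MRPL12) and 3 of 29 MRPS genes (MRPS2, MRPS34 and MRPS18A) were called up and 0 down, where 2.77% of the 13635 genes with a p-value were called up and 1.38% down. Those calls match a fold of 1.5 at an unadjusted p under 0.01.

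Among large subunit proteins, those with a bacterial counterpart include the most positive members after MRPL41. MRPL4, which corresponds to the protein that lines the nascent peptide tunnel, is on chromosome 19 at 10251901 to 10260045, plus strand (GRCh38, GENCODE 29). MRPL4 had 63.2, 51.0 and 52.5 CPM in knockdown libraries, against 37.8, 28.8 and 35.3 CPM in NC libraries. All 3 knockdown values lay above all 3 NC values. The log2 fold change of MRPL4 was 0.71 (SE 0.18, 1.64-fold; edgeR adjusted p = 0.338, 0.0481 to 0.772 over the alternatives), 0.60 leaving out knockdown replicate 1 and 0.19 under GC and length offsets. In the authors' deposited table, MRPL4 had a log2 fold change of 0.72 with an unadjusted p of 0.000176.

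MRPL12 forms the flexible stalk of the large subunit that recruits translation factors, and MRPL10 anchors it. MRPL12 (chromosome 17, 81703357 to 81707526, plus strand) shares exon sequence on its strand with AC139530.2, so reads of the pair may be divided between them. It had 136, 78.0 and 121 CPM in knockdown libraries, against 79.9, 53.7 and 76.5 CPM in NC libraries. Knockdown replicates 1 and 3 lay above every NC library, and knockdown replicate 2 lay among them. For MRPL12 the estimated log2 difference was 0.67 (SE 0.24; edgeR adjusted p = 0.338, 0.0479 to 0.772 over the alternatives), and 0.15 with the offsets. Its anchor MRPL10 differed less, with 50.9 ± 2.92 CPM in knockdown libraries and 47.2 ± 2.43 CPM in NC libraries (SD, n = 3 each), a log2 fold change of 0.11 (SE 0.15).

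MRPL28, another protein with a bacterial counterpart, had 93.1, 51.9 and 80.1 CPM in knockdown libraries, against 56.5, 42.1 and 52.5 CPM in NC libraries. As with MRPL12, its knockdown replicate 2 fell within the NC range. MRPL28 differed by 0.58 on the log2 scale (SE 0.23), by 0.38 without knockdown replicate 1 and by 0.10 with the offsets, and its exons overlap TMEM8A on the same strand. MRPL3, which reaches toward the peptidyl transferase centre, had 82.0, 144 and 119.8 CPM in knockdown libraries, against 122, 124 and 119.8 CPM in NC libraries. The knockdown values of MRPL3 lay on both sides of the narrow NC range (log2 fold change -0.080, SE 0.20; 0.10 without knockdown replicate 1).

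MRPL30 (chromosome 2, 99181079 to 99197626, plus strand), which has a bacterial counterpart, was the only member of either subunit whose knockdown libraries all lay below the NC libraries. It had 61.1, 73.8 and 81.4 CPM in knockdown libraries, against 85.7, 82.3 and 82.8 CPM in NC libraries. The gap was small beside the spread, with a log2 fold change of -0.21 (SE 0.15; edgeR adjusted p = 0.435, 0.301 to 0.869 over the alternatives) that was -0.056 with the offsets. MRPL30 shares exons on its strand with AC079447.1 and AC092587.1. MRPL35, also with a bacterial counterpart, had 39.8 ± 3.68 CPM in knockdown and 43.7 ± 3.25 CPM in NC libraries (log2 fold change -0.13, SE 0.16), and 0.23 with the offsets. GENCODE lists 4 pseudogenes of MRPL35, whose reads may be divided with it.

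The large subunit proteins added in mitochondria spanned the whole range of differences. MRPL41 (chromosome 9, 137551199 to 137552555, plus strand), also described as a partner of the survival protein BCL2, had the most positive MRPL estimate, with 44.5, 21.5 and 36.9 CPM in knockdown libraries, against 17.9, 15.2 and 27.4 CPM in NC libraries. Its groups overlapped through knockdown replicate 2 and NC replicate 3. The log2 fold change of MRPL41 was 0.77 (SE 0.31; edgeR adjusted p = 0.338, 0.0512 to 0.945 over the alternatives). With the offsets it was 0.094, and MRPL41 had the highest transcript GC content of all members at 71.9%.

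MRPL37, the most abundant large subunit transcript by FPKM, was higher in every knockdown library, with 209.9, 200.004 and 171 CPM in knockdown libraries, against 150.4, 118 and 139 CPM in NC libraries. No knockdown library reached down to the NC range. This was a log2 fold change of 0.51 (SE 0.15; edgeR adjusted p = 0.338, 0.0501 to 0.772 over the alternatives), 0.44 without knockdown replicate 1 and 0.28 with the offsets. MRPL57, one of the 3 least abundant MRPL transcripts by FPKM, had 18.9, 19.8 and 21.5 CPM in knockdown libraries, against 15.9, 10.8 and 16.7 CPM in NC libraries, also without overlap. Its log2 fold change was 0.47 (SE 0.21) as counted and 0.45 with the offsets. Since 5 pseudogenes of MRPL57 are annotated, its counts may hold reads of those copies.

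MRPL51 had 139.5, 66.3 and 116 CPM in knockdown libraries, against 93.5, 64.1 and 82.8 CPM in NC libraries, with knockdown replicate 2 near the lowest NC value (log2 fold change 0.42, SE 0.27; 0.18 without knockdown replicate 1 and 0.24 with the offsets). At the low end, MRPL42 had 27.9, 45.0 and 48.1 CPM in knockdown libraries, against 43.4, 50.4 and 44.2 CPM in NC libraries. Only knockdown replicate 1 lay below the NC range of MRPL42, and its log2 fold change of -0.19 (SE 0.22) was 0.0059 without that library and 0.29 with the offsets. The offsets of MRPL42 rest on a longest annotated transcript of 15582 bases. MRPL50 had 19.9, 34.1 and 25.3 CPM in knockdown libraries, against 28.3, 30.6 and 28.8 CPM in NC libraries, so that knockdown values lay below, above and below the NC range (log2 fold change -0.14, SE 0.21; 0.017 without knockdown replicate 1).

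MRPL45, MRPL44 and MRPL58 are large subunit proteins with a task beside structure. MRPL45, which sits at the tunnel exit and helps tie the ribosome to the inner membrane, had 45.8 ± 8.24 CPM in knockdown and 47.9 ± 3.37 CPM in NC libraries (log2 fold change -0.065, SE 0.18; -0.13 with the offsets). MRPL44, which carries a ribonuclease III-like fold, had 11.2 ± 2.17 CPM in knockdown and 10.7 ± 1.94 CPM in NC libraries (0.065, SE 0.23; 0.045 with the offsets). MRPL58, a peptidyl-tRNA hydrolase that can free stalled ribosomes and is also built into the large subunit, had 16.3 ± 1.77 CPM in knockdown and 13.6 ± 1.53 CPM in NC libraries (0.26, SE 0.18; 0.013 with the offsets). The groups overlapped for each of these genes (SD, n = 3 each).

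In the small subunit the largest estimate belonged to MRPS34, a protein with no bacterial counterpart that is needed for a stable small subunit. MRPS34 (chromosome 16, 1771890 to 1773155, minus strand) had 215, 119 and 149 CPM in knockdown libraries, against 97.4, 70.1 and 94.9 CPM in NC libraries. The lowest knockdown library was above the highest NC library. The log2 fold change of MRPS34 was 0.88 (SE 0.23, 1.84-fold; edgeR adjusted p = 0.338, 0.0353 to 0.772 over the alternatives), 0.61 without knockdown replicate 1 and 0.35 with the offsets. In the authors' deposited table it was 0.89 with an unadjusted p of 0.000672. By FPKM, which is a level per length, MRPS34 was also the most abundant of the 78 members at 111.7 FPKM over the 6 libraries.

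MRPS2 (chromosome 9, 135499984 to 135504673, plus strand), a counterpart of a bacterial small subunit protein, had 149, 122 and 116 CPM in knockdown libraries, against 91.1, 73.2 and 83.8 CPM in NC libraries. The groups of MRPS2 did not overlap. In log2 terms MRPS2 was higher by 0.64 (SE 0.16; edgeR adjusted p = 0.338, 0.0479 to 0.772 over the alternatives), 0.52 without knockdown replicate 1 and 0.20 with the offsets. MRPS2 overlaps exons of C9orf116 on the opposite strand, and no strand marking is named in the labels, so reads of the pair cannot be told apart.

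MRPS11, whose bacterial counterpart sits on the platform of the small subunit, kept its difference under the offsets. It had 61.0, 51.4 and 61.6 CPM in knockdown libraries, against 42.8, 35.4 and 41.5 CPM in NC libraries, without overlap. Its log2 fold change came to 0.54 (SE 0.16; edgeR adjusted p = 0.338, 0.0112 to 0.772 over the alternatives), 0.49 without knockdown replicate 1 and 0.56 with the offsets. MRPS24, a counterpart of the protein that lines the messenger RNA entry, had 112, 69.1 and 103 CPM in knockdown libraries, against 76.6, 60.6 and 73.2 CPM in NC libraries. Knockdown replicate 2 of MRPS24 lay inside the NC range (log2 fold change 0.44, SE 0.20), and its exons are shared with the read-through gene URGCP-MRPS24.

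MRPS12, which corresponds to the protein at the decoding centre, had 33.7 ± 8.39 CPM in knockdown and 26.4 ± 4.02 CPM in NC libraries (SD, n = 3 each), a log2 fold change of 0.35 (SE 0.23) that was -0.056 with the offsets. MRPS14, which has a bacterial counterpart, differed by 0.061 (SE 0.18) on the log2 scale. MRPS10, whose promoter is given above, had 35.4, 53.0 and 52.3 CPM in knockdown libraries, against 55.5, 50.8 and 53.5 CPM in NC libraries. Knockdown replicate 1 alone lay below the NC range, and the log2 fold change of -0.18 (SE 0.19) was -0.025 without it.

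Among 5 other small subunit proteins added in mitochondria, estimates as counted lay between -0.13 and 0.047, and 3 were larger in size with the offsets. As counted, log2 fold changes were 0.047 (SE 0.22) for MRPS22, which is mutated in a mitochondrial disease of infancy, 0.016 (SE 0.15) for MRPS23, -0.044 (SE 0.19) for MRPS31 and -0.13 (SE 0.16) for MRPS35. MRPS27, a pentatricopeptide repeat protein, had 94.8 ± 12.3 CPM in knockdown and 102 ± 3.24 CPM in NC libraries (-0.098, SE 0.15). With the offsets the values were 0.17 for MRPS22, 0.32 for MRPS23, -0.031 for MRPS31, -0.051 for MRPS35 and 0.20 for MRPS27. The groups overlapped for these 5 genes. MRPS25 and MRPS33, also of this class, lay outside that range, at 0.14 (SE 0.18) and 0.10 (SE 0.19) as counted. With the offsets they had 0.33 and 0.48, and their groups overlapped too. MRPS26, with 0.40 (SE 0.20) as counted and -0.078 with the offsets, and MRPS34 were the pair of this class whose groups did not overlap.

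The 3 paralogues of the MRPS18 family go to different places in the ribosome, and all were higher in every knockdown library. MRPS18A, which despite its symbol is built into the large subunit, had 76.7, 56.9 and 58.9 CPM in knockdown libraries, against 48.9, 36.1 and 42.7 CPM in NC libraries. MRPS18B, of the small subunit, had 97.1 ± 5.31 CPM in knockdown and 79.1 ± 3.79 CPM in NC libraries. MRPS18C, also of the small subunit and with the bacterial counterpart's place, had 21.7 ± 0.624 CPM in knockdown and 20.1 ± 0.903 CPM in NC libraries. The differences were thus unequal in size, with log2 fold changes of 0.59 (SE 0.19) for MRPS18A, 0.30 (SE 0.13) for MRPS18B and 0.11 (SE 0.16) for MRPS18C. With the offsets the order differed, at 0.22, 0.11 and 0.37, and MRPS18C had a log2 fold change of -0.030 when libraries were scaled by size alone. In the authors' deposited table MRPS18A had a log2 fold change of 0.60 with an unadjusted p of 0.00414.

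**Figure D2:**
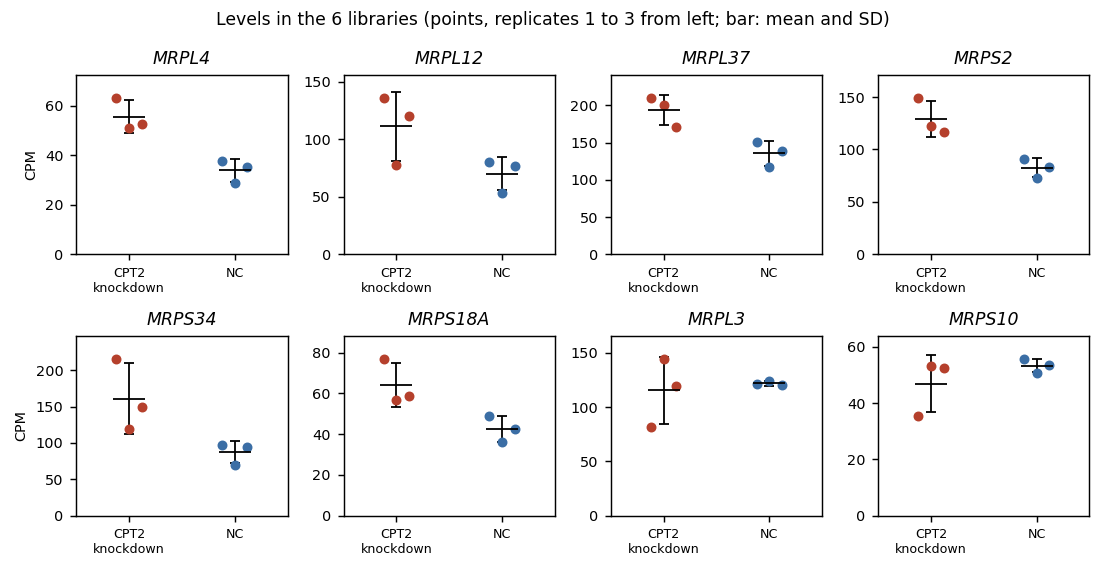
CPM (vertical axis, from 0) of 8 members in the 3 CPT2 knockdown libraries and the 3 NC libraries, with the mean and SD of each group. MRPL4, MRPL37, MRPS2, MRPS34 and MRPS18A have every knockdown library above every NC library, MRPL12 overlaps through knockdown replicate 2, and MRPL3 and MRPS10 spread around or below the NC values.

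Symbols and structure disagree for 3 members. MRPS18A and MRPS30 are parts of the large subunit, and MRPS36 is now known as a subunit of the oxoglutarate dehydrogenase complex and not of the ribosome. MRPS30 had 52.2, 96.3 and 71.3 CPM in knockdown libraries, against 74.4, 85.2 and 77.3 CPM in NC libraries, so that knockdown values lay below, above and below the NC range. Its log2 fold change was -0.11 (SE 0.22), 0.076 without knockdown replicate 1 and 0.33 with the offsets. MRPS36 had 11.3 ± 1.22 CPM in knockdown and 10.7 ± 1.14 CPM in NC libraries (log2 fold change 0.076, SE 0.19). Assigned by structure, 51 large subunit genes had a median of 0.27 (log2 fold change), with 41 positive, and 26 small subunit genes one of 0.22, with 22 positive.

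By origin, the 29 MRPL proteins with a bacterial counterpart had a median log2 fold change of 0.25 (23 positive) and the 19 added in mitochondria one of 0.31 (16 positive). For MRPS the medians were 0.28 over 16 genes with a bacterial counterpart (15 positive) and 0.031 over 10 added in mitochondria (6 positive). That gap between the MRPS classes was not seen with the offsets, where the medians were 0.25 and 0.26. The median transcript GC content of these 2 MRPS classes was 47.3% and 42.5%.

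The medians of the subunits varied alike across libraries, and the 3 knockdown libraries differed among themselves. Measured as log2 CPM minus the NC mean of each gene, the MRPL median was 0.40, 0.091 and 0.34 in knockdown replicates 1, 2 and 3, and 0.088, -0.14 and 0.046 in NC replicates 1, 2 and 3. The MRPS median was 0.27, 0.073 and 0.25 in the knockdown replicates, and 0.061, -0.11 and 0.030 in the NC replicates. Knockdown replicates 1 and 3 were thus above every NC library in both subunits, while knockdown replicate 2 was level with NC replicate 1. Knockdown replicate 3 had 39 of 49 MRPL and 22 of 29 MRPS genes above every NC library, and knockdown replicate 2 had 19 and 14.

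Knockdown replicate 1 was the most divided library: 34 MRPL genes were above and 9 below every NC library, and 18 MRPS genes were above and 8 below. In it MRPL41 was highest, at 1.19 on the log2 scale, and MRPL42 lowest, at -0.72, while among MRPS genes MRPS34 reached 1.31 and MRPS30 -0.60. The median coefficient of variation of MRPL genes was 17.7% in knockdown and 10.6% in NC libraries, and that of MRPS genes 17.0% in knockdown and 7.42% in NC libraries. All tested genes showed a wider spread in the knockdown as well, with 23.4% in knockdown and 11.8% in NC libraries. Without knockdown replicate 1 the median log2 fold change was 0.23 for MRPL (45 of 49 positive) and 0.23 for MRPS (24 of 29 positive).

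**Figure D3:**
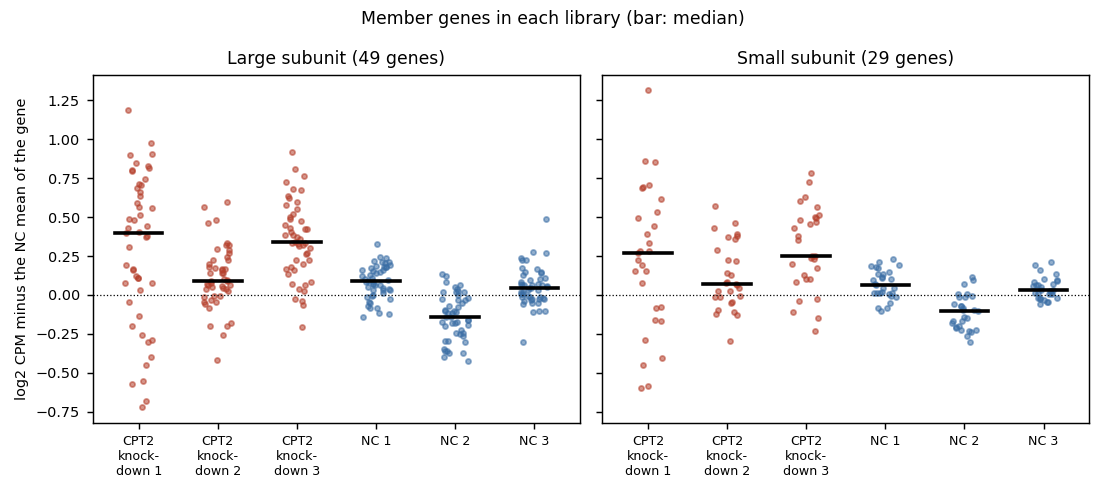
Log2 CPM minus the gene's NC mean (vertical axis) for the 49 MRPL genes (left) and 29 MRPS genes (right) in each of the 3 CPT2 knockdown and 3 NC libraries; each point is a gene and the bar is the median. Knockdown replicates 1 and 3 have MRPL medians of 0.40 and 0.34, replicate 2 one of 0.091, and the points of replicate 1 reach furthest in both directions.

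Summed over its genes, the large subunit had 2504, 2158 and 2491 CPM in knockdown libraries, against 2082, 1814 and 2017 CPM in NC libraries. The small subunit had 1855, 1598 and 1819.6 CPM in knockdown libraries, against 1533, 1347 and 1487 CPM in NC libraries. Every knockdown sum was above every NC sum on this scale, with ratios of the group means of 1.21 for MRPL and 1.21 for MRPS. By summed FPKM the ratios were 1.14 and 1.16, and the MRPL groups overlapped, with 1686, 1565 and 1891 FPKM in knockdown libraries, against 1563, 1363 and 1583 FPKM in NC libraries. As a share of all counts, without TMM scaling, knockdown replicate 2 lay within the NC range for both subunits, at 0.213% for MRPL and 0.158% for MRPS. The balance between the subunits was nearly constant: the large to small ratio of summed CPM was 1.35, 1.35 and 1.37 in knockdown libraries, against 1.36, 1.35 and 1.36 in NC libraries.

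Levels per length spanned about the same range in both subunits. Mean FPKM over the 6 libraries ran from 4.98 (MRPL42) to 103.7 (MRPL37) in MRPL, a 20.8-fold range, and from 6.10 (MRPS23) to 111.7 (MRPS34) in MRPS, an 18.3-fold range. The lowest by FPKM were not the lowest by CPM. MRPL42 had 43.2 CPM over the 6 libraries and a longest annotated transcript of 15582 bases. MRPS23 had 33.7 CPM and 5621 bases, so these ranges depend on transcript length. After MRPL37 came MRPL12 at 82.2 and MRPL51 at 76.2 FPKM, and after MRPS34 came MRPS24 at 108.3 and MRPS2 at 65.6 FPKM. At the low end, MRPL44 had 5.96 and MRPL57 7.23 FPKM, and MRPS31 had 6.23 and MRPS14 7.57 FPKM. Neighbours in this order overlapped over the 6 libraries in 48 of 48 MRPL pairs and 27 of 28 MRPS pairs. The pair without overlap was MRPS24, whose lowest library had 84.9 FPKM, and MRPS2, whose highest had 80.9 FPKM. The gene models behind the deposited FPKM are not given in the sources used here.

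The differences followed transcript GC content, which also ordered the differences of all genes. Across genes, Spearman's rho between GC content and log2 fold change was 0.75 over 49 MRPL genes and 0.78 over 29 MRPS genes, beside 0.68 over 13207 tested genes with an annotated transcript. These are descriptions over genes that share the 6 libraries. Without knockdown replicate 1 the values were 0.56, 0.68 and 0.49. Of the 39 members with a GC content of 47.7% to 71.9%, 39 were higher in the knockdown, with a median of 0.41, where 7079 other genes of that range had a median of 0.23. Of the 39 members with 33.5% to 47.6%, 25 were higher, with a median of 0.061, where 5900 other genes had a median of -0.28. Set beside the median of the other genes in their own GC bin, 47 of 49 MRPL and 29 of 29 MRPS genes lay above it, by a median of 0.20 and 0.32 on the log2 scale. The bins were not matched on length. As counted, log2 fold changes also fell with transcript length, with Spearman's rho of -0.30 for MRPL, -0.46 for MRPS and -0.46 for all genes. Median lengths were 1693 (MRPL) and 1888 bases (MRPS), beside 3630 bases for all tested genes. The part of length in this excess was not tested.

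When the trend of each library with transcript GC content and length was taken out by offsets, the medians were 0.094 for MRPL (34 of 49 positive) and 0.22 for MRPS (24 of 29 positive), beside 0.0064 for all 13207 genes, of which 50.9% were positive. The sign changed with the offsets for 14 MRPL genes, 10 of them to negative, and for 4 MRPS genes, 2 of them to negative. Again 0 members were called by edgeR (0.0227% of all genes), and at an unadjusted p under 0.05, 10 MRPL and 7 MRPS genes were higher and 0 lower, where 7.81% of all genes were higher. By library, the MRPL median with the offsets was 0.058, 0.0074 and 0.12 in knockdown replicates 1, 2 and 3, against 0.089, -0.081 and 0.018 in the NC replicates, so the groups overlapped. The MRPS median was 0.36, 0.0058 and 0.22 in the knockdown replicates, against 0.070, -0.10 and 0.027 in the NC replicates, with knockdown replicate 2 inside the NC range. The longest annotated transcript stood for each gene, and with the offsets the differences were related to its length across members (Spearman's rho 0.50 over 49 MRPL and 0.50 over 29 MRPS genes, -0.027 over all genes). Whether the members' differences come from GC content was not tested.

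**Figure D4:**
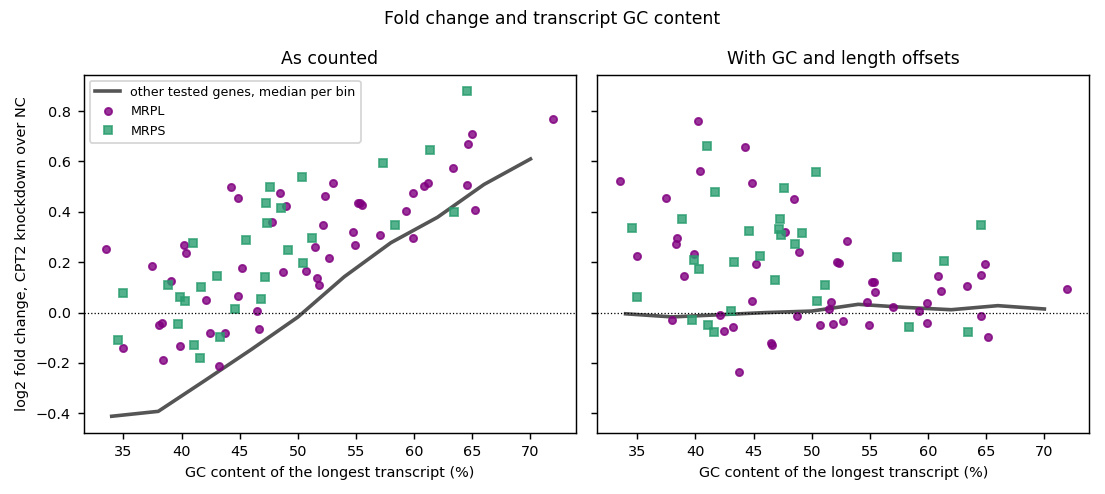
Log2 fold change (vertical axis, CPT2 knockdown over NC) against the GC content of the longest transcript (horizontal axis, %) for MRPL genes (circles) and MRPS genes (squares), with the median of the other tested genes per GC bin as a line, as counted (left) and with GC and length offsets (right). As counted, values increase with GC content along the line and nearly all lie above it, while with the offsets the line is flat near 0 and the MRPL and MRPS medians are 0.094 and 0.22. The bins are not matched on transcript length.

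Several members start close to a neighbour on the other strand. A protein-coding gene read the opposite way was sought within 1000 bases, with no more than a short overlap of the starts. Pairs that overlap further were left out. Such a partner was found for 19 members, which form 18 pairs. MRPL46 and MRPS11 are each other's partner, 34 bases apart on chromosome 15. Both genes of a pair were higher in the knockdown in 12 pairs, both lower in 2 and opposite in 4, and 0 partners were called by edgeR. With the offsets these counts were 7, 2 and 9. MRPL46 had a log2 fold change of 0.27 (SE 0.18), and 0.76 (SE 0.30) with the offsets, beside 0.54 and 0.56 for MRPS11. The offsets of MRPL46 rest on a longest annotated transcript of 5561 bases, where the median over MRPL genes was 1693 bases. MRPL36, with 0.41 (SE 0.21) as counted and -0.099 with the offsets, faces NDUFS6, a complex I subunit, with 0.66 (SE 0.21) and 0.35. MRPL13, with 0.25 (SE 0.16) as counted and 0.52 with the offsets, overlaps the start of MTBP, which had -0.83 (SE 0.23) and -0.44. MRPS34 faces EME2, with 0.37 (SE 0.22) as counted and -0.015 with the offsets.

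Shared reads are a limit for part of the list: 13 members overlap exons of another deposited gene on the same strand, 21 on the opposite strand, and 34 have pseudogenes annotated under their name, 75 in all. The 19 MRPL genes with neither overlap nor pseudogene were all positive, with a median log2 fold change of 0.36 as counted and 0.045 with the offsets. The 5 such MRPS genes had medians of 0.29 and 0.32, with 4 positive as counted.

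Proteins without an MRP symbol that belong to or bind the mitochondrial ribosome were read from a list of 7. Of these, 0 were called by edgeR and 6 were higher in the knockdown, with a median log2 fold change of 0.33. With the offsets 6 were higher, with a median of 0.29. The list counts OXA1L (0.33, SE 0.15) and MALSU1 (0.25, SE 0.16), which bind the ribosome and are not ribosomal proteins. GADD45GIP1, a large subunit protein that also binds GADD45 growth arrest proteins, had 79.6 ± 20.4 CPM in knockdown and 39.8 ± 8.66 CPM in NC libraries (SD, n = 3 each), without overlap. The estimate for GADD45GIP1 was 1.00 on the log2 scale (SE 0.23; adjusted p = 0.338 by edgeR and 0.0446 by DESeq2), and 0.58 with the offsets. AURKAIP1, a small subunit protein, had 117 ± 32.6 CPM in knockdown and 66.2 ± 10.6 CPM in NC libraries, a log2 fold change of 0.83 (SE 0.23) that was 0.23 with the offsets. DAP3, a GTP-binding small subunit protein, differed by 0.16 (SE 0.12) and CHCHD1, also of the small subunit, by 0.38 (SE 0.19). PTCD3, a pentatricopeptide repeat protein of the small subunit, was lower in every knockdown library, with 57.4 ± 14.1 CPM in knockdown and 73.3 ± 3.44 CPM in NC libraries (-0.35, SE 0.20; -0.014 with the offsets).

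Genes that act on the ribosome showed no single pattern. Of 24 assembly factors, 0 were called and 20 were higher, with a median log2 fold change of 0.23 as counted and 0.075 with the offsets. YBEY, an endoribonuclease of small subunit maturation, had 12.1 ± 1.61 CPM in knockdown and 8.09 ± 0.383 CPM in NC libraries (0.58, SE 0.19; 0.34 with the offsets). RBFA, which binds the assembling small subunit, differed by 0.42 (SE 0.17), and by 0.31 with the offsets. METTL15, which methylates its ribosomal RNA, differed by -0.45 (SE 0.19) as counted and by -0.051 with the offsets. Of 15 genes listed for mitochondrial translation, 0 were called and 6 were higher, with a median of -0.020. With the offsets 10 were higher, with a median of 0.055. The list includes LRPPRC (-0.38, SE 0.21) and SLIRP (0.24, SE 0.20), which bind mitochondrial messenger RNA and are not translation factors. TUFM, the mitochondrial elongation factor Tu, had 316 ± 47.7 CPM in knockdown and 244 ± 24.7 CPM in NC libraries (0.37, SE 0.16; 0.055 with the offsets).

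The messenger RNAs that the mitochondrial ribosome translates differed by library in another order than the ribosomal proteins. All 13 had positive estimates, the median being 0.61, and 0 were called. With the offsets all 13 were again positive, with a median of 0.46. Their summed CPM was 193797, 157407 and 90302 in knockdown replicates 1, 2 and 3, against 102569.8, 101895 and 94011 in NC replicates 1, 2 and 3. Knockdown replicate 3 was thus below every NC library for these transcripts while its MRPL and MRPS medians were above every NC library. The proteins of the cytosolic ribosome, by symbol, had a median log2 fold change of 0.26, with 77 of 82 tested genes positive and 0 called by edgeR. With the offsets it was 0.19, with 65 positive, beside 0.094 for MRPL. The difference between these lists was not tested.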

How the data were processed

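RNA was measured in 6 HCT116 libraries, 3 with siRNA against CPT2 and 3 with control siRNA. The deposited table holds the authors' raw counts per gene and library, FPKM and, per the file headers, the p-value, log2 fold change and call of their own DESeq2 comparison. The submitters' processing notes name HISAT2, TopHat2, Bowtie2, StringTie, DESeq2, edgeR and the build GRCh38, giving no version or role. Per the labels' protocols, poly(A) RNA was copied with random primers, with no strand marking named. The members, gene lists and tests were chosen with earlier results of these data known.

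Of 24154 rows, 17 stray lines aside, 19974 had an Ensembl ID, all matched in GENCODE 29, and 4180 were loci without one, which stayed in the library sizes and tests. The test was that of edgeR 4.0.16 (R 4.3.3): filterByExpr (15302 genes kept), TMM scaling, the robust quasi-likelihood F-test and Benjamini-Hochberg adjustment at 0.05 over all genes. CPM use TMM-scaled library sizes, and per-library log2 CPM a prior count of 2. Errors are SD over 3 libraries unless SE is named. Offsets came from a loess (span 0.5) of each library on transcript GC content and length. Total counts of 28353790 to 29449380 and 3 libraries a group limit the precision.

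Alternatives were DESeq2 1.42.0, limma 3.58.1 (voom, and trend on log2(FPKM + 1) or log2(FPKM + 0.1)), other scaling factors and filters, leaving out each library, the replicate number as a block, and the offsets. Genes named were CPT2; in each subunit the 3 highest and 3 lowest by FPKM, the 4 highest and 4 lowest by log2 fold change, the 3 smallest p-values and the authors' calls; members of known role; ribosome proteins without an MRP symbol; and the 4 factors with the smallest p-values. Names in the counts of separated groups, pairs of neighbouring genes and promoters were chosen after values were seen. So were MRPS25, MRPS33, OXA1L, MALSU1, LRPPRC and SLIRP.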

Additional observations from a re-analysis of the deposited data

How the results depend on the processing

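The counts of members with a positive value and of members at an unadjusted p under 0.05 were added to the alternatives after seeing the data. Under all 20 alternatives run for them the medians of both subunits kept a positive sign, from 0.088 to 0.37 for MRPL and from 0.054 to 0.26 for MRPS (log2 fold change). Members with a positive value, counted under 19 of these, numbered 34 to 45 of 49 and 16 to 24 of 29. Leaving out 1 library at a time gave MRPL medians of 0.23 to 0.37 and MRPS medians of 0.15 to 0.26, with 37 to 45 and 21 to 24 genes positive. Scaling by library size alone moved the median of all genes to -0.13, and limma-trend on log2(FPKM + 1) or log2(FPKM + 0.1) moved it to -0.072 or -0.12. Relative to that shift, the MRPL median was higher by 0.26, 0.22 and 0.27 and the MRPS median by 0.20, 0.13 and 0.18, with 40 MRPL genes above the median of all genes each time and 24, 20 and 24 MRPS genes. Unshifted, the MRPS medians were 0.066, 0.054 and 0.057, with 16, 17 and 17 genes positive, and the MRPL genes at an unadjusted p under 0.05 were 3, 3 and 3. The share of all genes at that p in these fits is not given here. The MRPL median was 0.094 with GC and length offsets, 0.10 with the offsets and without CPT2 knockdown replicate 1, and 0.088 with the offsets and the replicate number as a block.

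Over all genes, calls numbered 13 by DESeq2, 1 by limma-voom, 1 with the stricter filter (1 CPM in 3 libraries and a mean of 5 CPM), 1 at an adjusted p of 0.01, 0 and 0 by limma-trend with the 2 pseudocounts, 4 with the offsets and without CPT2 knockdown replicate 1, and 1 to 5 with 1 library left out. Members at an unadjusted p under 0.05 numbered 2 to 22 for MRPL with 1 library left out (22 without knockdown replicate 2, 2 without knockdown replicate 3, and 4, 2 and 6 without NC replicates 1, 2 and 3). For MRPS they numbered 3 to 13 (8 without knockdown replicate 1, 13 without knockdown replicate 2 and 3 without NC replicate 2). The share of all genes at that p with a library left out is not given here. These counts therefore cannot be set against all genes. No member was called with any library left out.

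The labels do not say whether the replicate numbers pair the samples, and the values do not settle it. Deviations of same-numbered libraries from their group means correlated at 0.25, 0.36 and 0.0065. Those of differently numbered libraries correlated at -0.32 to 0.091. Knockdown replicates 1 and 2 correlated best with their own number. Knockdown replicate 3 showed no such preference, with 0.0065, 0.0042 and -0.0099 for NC replicates 3, 1 and 2. With the replicate block 633 of 15302 genes were called, with 2 MRPL (MRPL4, MRPL12) and 3 MRPS genes (MRPS2, MRPS34, MRPS18A). At an unadjusted p under 0.05 stood 21 MRPL and 9 MRPS genes. With the block and the offsets 682 of 13207 genes were called, with 5 MRPL and 4 MRPS genes. Of the members called with the block alone, only MRPS34 was called here too. At an unadjusted p under 0.05 stood 12 MRPL and 16 MRPS genes. The share of all genes at that p with the block is not given here, so these counts cannot be set against it. AURKAIP1 and GADD45GIP1 were also called with the block, at adjusted p-values of 0.0479 and 0.0466 by edgeR.

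Of 43 named genes, 25 never changed sign over 19 alternatives each, and 54 of 817 values did; the causes were not tested. With the offsets, log2 fold changes of opposite sign were 0.026 for CPT2, -0.046 for MRPL10, 0.23 for MRPL35, 0.29 for MRPL42, 0.22 for MRPL50, -0.056 for MRPS12, 0.20 for MRPS27 and 0.33 for MRPS30. With the offsets and the block they were -0.044 for MRPL10, 0.23 for MRPL35, 0.29 for MRPL42, 0.22 for MRPL50, -0.065 for MRPS12, 0.20 for MRPS27 and 0.33 for MRPS30. With the offsets and without CPT2 knockdown replicate 1 they were 0.056 for MRPL3, 0.070 for MRPL35, 0.29 for MRPL42, 0.13 for MRPL50, 0.11 for MRPS27, 0.24 for MRPS30 and 0.034 for PTCD3. By library size alone they were -0.029 for MRPL10, -0.060 for MRPL44, -0.069 for MRPS14, -0.030 for MRPS18C, -0.075 for MRPS22, -0.12 for MRPS23 and -0.055 for MRPS36. By limma-trend they were -0.054 for MRPL44, -0.097 for MRPS14, -0.083 for MRPS22, -0.085 for MRPS23 and -0.044 for MRPS36 with a pseudocount of 1, and -0.065 for MRPL44, -0.11 for MRPS14, -0.088 for MRPS22, -0.098 for MRPS23 and -0.051 for MRPS36 with one of 0.1. Leaving out 1 library at a time, the genes that changed sign ranged from -0.28 to 0.10 for MRPL3, -0.34 to 0.0059 for MRPL42, -0.074 to 0.20 for MRPL44, -0.16 to 0.067 for MRPL45, -0.38 to 0.017 for MRPL50, -0.012 to 0.15 for MRPS14, -0.17 to 0.23 for MRPS22, -0.031 to 0.054 for MRPS23, -0.36 to 0.076 for MRPS30, -0.20 to 0.043 for MRPS31 and -0.011 to 0.14 for MRPS36.

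Members held 177 to 5606 counts in a library. The spread between the 3 libraries of a group, with a median coefficient of variation of 17.7% for MRPL and 17.0% for MRPS in the knockdown and of 10.6% and 7.42% in NC, limits what passes a test over all genes.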
